A study of Mus musculus with 8 samples.

Results

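Il1rl1+ type 2 cells were taken from the CD45+ cells of B16-OVA tumors by their RNA. The rule asked for at least 1 UMI (unique molecular identifier, which stands for 1 captured RNA molecule) of Il1rl1, which encodes the IL-33 receptor chain ST2, and at least 1 of Gata3, which encodes the main transcription factor of type 2 lymphocytes. Cells with any UMI of Foxp3, Cd8a, Cd8b1, Ncr1 or Cd79a, or with 5 or more of Lyz2, were left out. The rule found 299 cells among the 12828 cells that passed the study's filter on genes, UMIs, ribosomal and mitochondrial RNA (2.33%), out of 15700 deposited barcodes. At least 1 Cd4 UMI was present in 142 of them and none in 157, and these are called Cd4-positive and Cd4-negative cells. The cells were thus selected on measured values of these genes, which are described and not tested: Il1rl1 had 1 to 35 UMIs per cell with a median of 4, and Gata3 had 1 to 23 with a median of 4.

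The cells came from 8 libraries of the 10x Genomics 5′ assay, 1 for each condition and day, sorted as CD45+ cells with enrichment for CD8+ tumor-infiltrating lymphocytes. C57BL/6 mice with tumors of B16-OVA, a melanoma line that makes ovalbumin, were given adoptive cell transfer (ACT) of OT1 cells, CD8+ T cells with a transgenic receptor for an ovalbumin peptide, without prior lymphodepletion. The mice were 7 weeks old when the tumor cells were injected. The OT1 cells were untransduced (days 5 and 12 after transfer) or secreted a PD-1 decoy (PD1d, the ectodomain of PD-1 on an Fc part) together with IL-2v, an IL-2 variant that does not engage CD25 (PD1d/IL-2v ACT, day 12), together with IL-33 (PD1d/IL-33 ACT, day 12), or were a mix of both kinds of cells (the PD1d/IL-2v/IL-33 group, called triple ACT here, days 5, 12 and 26). Non-treated tumors labelled day 5 gave the remaining library, and the study's methods for the sort of CD45+ cells describe neither this group nor day 26, which they name for a later sort of CD8+ cells. Tumors of 5 mice were pooled per condition, so no difference between a pair of libraries has a replicate check. The libraries held 1387032 UMIs in 400 barcodes (untransduced ACT, day 12) to 24917112 UMIs in 3700 barcodes (triple ACT, day 26), and 202 to 3655 passing cells. The 4 libraries in which OT1 cells secreted IL-33 held 286 of the 299 cells, beside 8451 of all 12828 passing cells.

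IL-33 is released by damaged or stressed tissue and acts on cells that carry ST2. Type 2 helper T cells and group 2 innate lymphoid cells (ILC2s) are the lymphocytes best known for this receptor. Both use GATA3 and answer IL-33 with IL-5, which feeds eosinophils, with IL-13, which acts on epithelium and macrophages, and with amphiregulin (Areg), a growth factor of tissue repair. T helper cells carry a T cell receptor with its CD3 chains, and ILC2s do not. Regulatory T cells of tissues can carry ST2 and GATA3 too, which is why cells with Foxp3 were kept apart.

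The Cd4-positive cells carried T cell genes, with Cd3e in 95.8% and Cd3g in 93.0% of the 142 cells. The Cd4-negative cells went only in part with the label of innate lymphoid cells: 118 of 157 (75.2%) had at least 1 UMI of Cd3d, Cd3e or Cd3g, and 39 had none. They are therefore called by the rule, and the 39 cells without Cd3 are given apart. Median depth was 6143 UMIs in Cd4-positive cells, 5637 in Cd4-negative cells and 7053 in those without Cd3. A cell with 0 UMIs of Cd4 or Cd3 may still carry the RNA: Cd4-positive cells had a median of 2 Cd4 UMIs. In turn, a single Cd3 UMI may come from RNA outside the cell, and this part was not tested.

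Markers of other cells were read over all 299 cells as CPM (a gene's UMIs scaled to 1000000 UMIs of the cells) summed over each list. Of 11 mast cell and basophil genes 2 had UMIs, Hdc (265 CPM, histidine decarboxylase) and Kit, while Cpa3, Fcer1a, Ms4a2, Gata2 and Mcpt8 were at 0. The eosinophil list reached 1.43 CPM. Of 8 NK genes 7 had UMIs (213 CPM in sum, most from Nkg7 at 147 CPM), and Ncr1 was at 0 by the rule. Of 10 myeloid genes 8 had UMIs (537 CPM in sum, most from Cst3 at 476 CPM), with C1qa and C1qb at 0. The myeloid sum was 328 CPM in PD1d/IL-33 ACT, 330, 359 and 1569 CPM at days 5, 12 and 26 of triple ACT, and 259 CPM in PD1d/IL-2v ACT, so the day 26 library stood apart. A single Cd4-negative cell of that library held 416 of the 999 Cst3 UMIs of all 299 cells, 340 of 822 of Cd74 and 124 of 232 of H2-Aa. The B list had UMIs of 1 of 4 genes (Cd79b, 8.10 CPM), the pDC list of 1 of 2 (Bst2, 198 CPM, with Siglech at 0), the tumor list of 1 of 4 (Mlana, 2.38 CPM), the innate-like T list of 1 of 6 (0.476 CPM) and the Treg list of 6 of 8 (568 CPM, most from Ctla4 at 336 CPM). Of 15557 different barcode sequences 143 occurred in more than 1 library. Of the barcodes of the 299 cells 4 occurred in another library, and none met the rule there.

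Il1rl1+ type 2 cells were more frequent in every library with IL-33 than in any without it. They were 4.18% of passing cells in PD1d/IL-33 ACT at day 12 (32 of 766, exact 95% interval 2.87 to 5.85), and 4.40% at day 5 (105 of 2387, 3.61 to 5.30), 5.11% at day 12 (84 of 1643, 4.10 to 6.29) and 1.78% at day 26 (65 of 3655, 1.38 to 2.26) of triple ACT. The libraries without IL-33 held 4 of 1953 cells in untransduced ACT at day 5 (0.205%), 1 of 202 at day 12 (0.495%, 0.0125 to 2.73), 8 of 1946 in PD1d/IL-2v ACT (0.411%) and 0 of 276 in non-treated tumors, which allows a share of up to 1.09% at 3 counts (exact upper limit 1.33%). The groups did not overlap, and day 26 was the lowest of the IL-33 libraries.

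**Figure D1:**
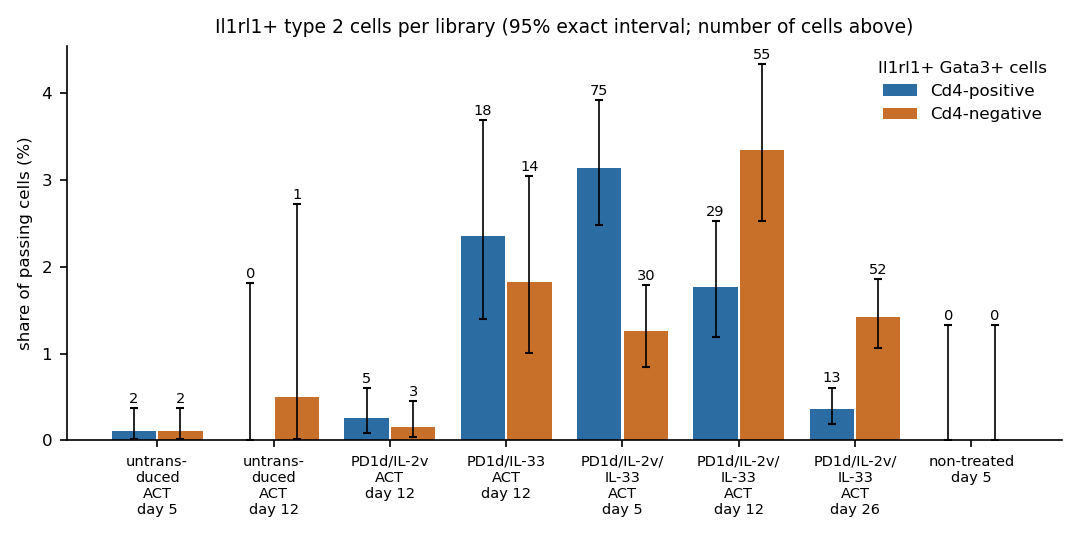
Share of passing cells (%, y axis) that were Cd4-positive (blue) or Cd4-negative (orange) Il1rl1+ type 2 cells in each of the 8 libraries (x axis), with exact 95% intervals and the number of cells above each bar. The 4 libraries with IL-33 hold 13 to 75 Cd4-positive and 14 to 55 Cd4-negative cells each, the other 4 hold at most 5 of either.

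The mean share was 3.87% ± 1.45 with IL-33 and 0.278% ± 0.222 without it (SD, n = 4 libraries each), a difference of 3.59 percentage points (exact permutation test, two-sided, p = 0.0286, the smallest that 70 regroupings allow). Cd4-positive cells were 1.90% ± 1.18 against 0.0898% ± 0.121 and Cd4-negative cells 1.96% ± 0.953 against 0.188% ± 0.215 (SD, n = 4 each), and both differences had the same exact permutation p = 0.0286. The p-values adjusted over these 3 tests are also 0.0286. The deposited list of libraries gives each one a code, and libraries with the same code are called a run here. What the code stands for is not stated. In the 3 runs that held a library of each kind, the share was higher with IL-33. The difference was 3.77 points (PD1d/IL-33 against PD1d/IL-2v ACT, day 12), 4.62 points (PD1d/IL-2v/IL-33 against untransduced ACT, day 12) and 1.78 points (triple ACT at day 26 against non-treated tumors). After thinning every cell to 2000 UMIs the difference for Cd4-positive cells was 0.503 points (exact permutation p = 0.0857). Day 26 of triple ACT was then at 0.137%, below PD1d/IL-2v ACT (0.206%) and untransduced ACT at day 12 (0.495%, against 0% at full depth). Thinning adds no UMIs, so the untransduced share rose through lost UMIs of a gene that excludes cells. The libraries of each side differ in day and in IL-2v, and fewer cells of this kind and less Il1rl1 RNA per cell cannot be told apart, since Il1rl1 was part of the rule.

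The share also depends on how many CD8+ T cells a sort brings in, so it was read among cells that pass only the negative terms of the rule. There it was 15.0% in PD1d/IL-33 ACT, 11.3%, 17.8% and 10.3% at days 5, 12 and 26 of triple ACT, and 0% to 3.05% in the 4 libraries without IL-33. The Cd4-negative part depended on depth. At full depth it was 43.8% of the 32 cells in PD1d/IL-33 ACT (exact 95% interval 26.4 to 62.3), 28.6% at day 5 (20.2 to 38.2), 65.5% at day 12 (54.3 to 75.5) and 80.0% at day 26 (68.2 to 88.9) of triple ACT. The median depth of these cells was 5169.5 UMIs in PD1d/IL-33 ACT and 7167, 5579 and 4658 UMIs at days 5, 12 and 26 of triple ACT. With Cd4 read in the same cells after thinning to 2000 UMIs, the Cd4-negative part was 65.6% in PD1d/IL-33 ACT (46.8 to 81.4), 65.7% at day 5 (55.8 to 74.7), 78.6% at day 12 (68.3 to 86.8) and 86.2% at day 26 (75.3 to 93.5). At equal depth the intervals of PD1d/IL-33 ACT and of days 5 and 12 overlap, and that of day 26 lies above that of day 5 alone, with 1 library each. With the whole rule applied again at 2000 UMIs, which leaves fewer cells, the parts were 68.2%, 70.7% (59.0 to 80.6), 75.5% and 86.8% (71.9 to 95.6) in the same order, and all 4 intervals overlap.

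Cytokine genes of type 2 immunity were present in most of these cells. Il13 was found in 67.6% and Il5 in 64.5% of the 299 cells, both in 158 cells (52.8%) and neither in 62. At least 1 of Il4, Il5 and Il13 was found in 246 cells (82.3%), in 78.9% of Cd4-positive and 85.4% of Cd4-negative cells. The share was 68.8% in PD1d/IL-33 ACT and 94.3%, 84.5% and 72.3% at days 5, 12 and 26 of triple ACT. Among 620 Il1rl1-negative Cd4 cells (median 3936 UMIs) it was 4.68%, and Lyz2-high cells, which should not make Il13, had Il13 in 0.375% of 1335 cells at a median of 9649 UMIs. The gaps remained at equal depth: at 2000 UMIs per cell Il13 was found in 58.2% of Il1rl1+ type 2 cells, 2.10% of Il1rl1-negative Cd4 cells and 0% of Lyz2-high cells.

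**Figure D2:**
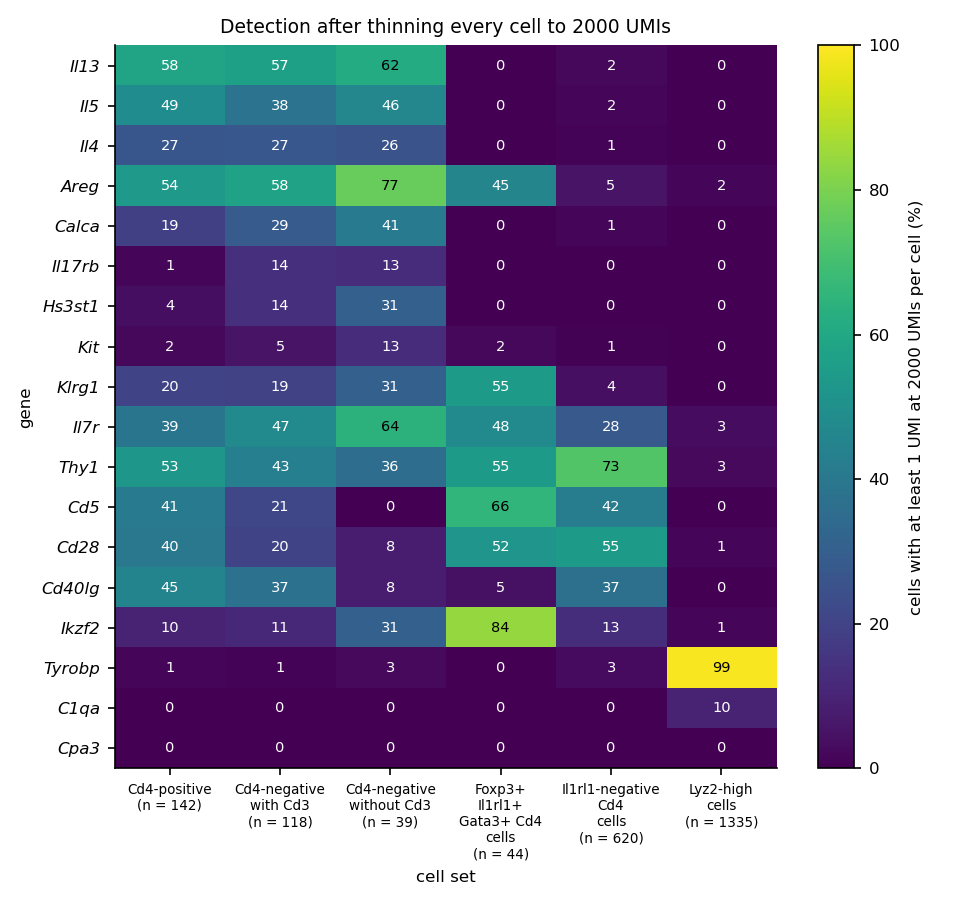
Percent of cells with at least 1 UMI after every cell was thinned to 2000 UMIs (color and number, %) for 18 genes (rows) in 6 cell sets (columns, n is the number of cells). Il13, Il5 and Il4 are frequent in the 3 sets of Il1rl1+ type 2 cells and at most 2.10% in the other sets, Areg is also frequent in cells with Foxp3, and the mast cell gene Cpa3 is at 0 throughout.

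Most of the Il13 and Il5 RNA of the passing cells lay in this small set. The 299 cells held 74.4% of all 8639 Il13 UMIs and 81.6% of all 4130 Il5 UMIs, beside 62.7% of the Il1rl1 UMIs. In PD1d/IL-33 ACT and at days 5, 12 and 26 of triple ACT these shares were 97.9%, 73.7%, 71.6% and 69.3% for Il13 and 84.6%, 83.7%, 68.1% and 72.6% for Il5. For Calca, which encodes the neuropeptide CGRP, they were 72.7%, 63.9%, 53.9% and 82.2%. Other genes varied more between libraries. Areg was at 68.9%, 78.1%, 55.7% and 20.9% in the same order, and Il4 at 86.5%, 36.5%, 59.0% and 68.8%. Il6 was at 62.9% (22 of 35 UMIs), 13.9%, 23.9% and 33.8%. The chemokine gene Ccl1 lay mainly in other cells in each of the 4, with at most 5.07% of its UMIs in the set.

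The start regions of the cytokine genes that mark these cells are shown because the rule takes GATA3, whose zinc fingers read the letters GATA, as a term of its own. The windows are the 250 bases before the RefSeq start in GRCm38.p6, written 5′ to 3′ on the strand of the gene. Il5 lies on the plus strand (chr11:53720544-53720793), Il13 on the minus strand (chr11:53634703-53634952) and Calca on the minus strand (chr7:114636358-114636607). Capitals mark a GATA motif, which is AGATAA (with AGATAG as its near form) or TGATAA (with TGATAG as its near form), on either strand, so that CTATCT is a match read on the other strand.
Il5: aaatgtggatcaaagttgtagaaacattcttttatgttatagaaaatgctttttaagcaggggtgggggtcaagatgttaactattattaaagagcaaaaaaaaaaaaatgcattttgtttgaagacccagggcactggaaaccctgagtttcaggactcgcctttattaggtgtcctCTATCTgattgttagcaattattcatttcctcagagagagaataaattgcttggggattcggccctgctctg
Il13: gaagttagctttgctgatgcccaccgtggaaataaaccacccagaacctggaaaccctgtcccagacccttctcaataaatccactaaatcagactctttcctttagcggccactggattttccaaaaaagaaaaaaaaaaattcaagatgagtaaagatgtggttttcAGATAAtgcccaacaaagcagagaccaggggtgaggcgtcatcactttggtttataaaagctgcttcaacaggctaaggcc
Calca: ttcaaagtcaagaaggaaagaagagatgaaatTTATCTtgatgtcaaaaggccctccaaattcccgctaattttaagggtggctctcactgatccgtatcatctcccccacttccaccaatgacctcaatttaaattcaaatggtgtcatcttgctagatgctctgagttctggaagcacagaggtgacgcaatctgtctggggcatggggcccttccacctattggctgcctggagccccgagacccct

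The Il5 window had 1 match 72 bases before the start, the Il13 window 1 match 81 bases before it and the Calca window 1 match 218 bases before it. Il4 had 1 match in the window of its first start, 80 bases before it, and 0 in that of its second. Areg, Il9 and Hs3st1 had 0. Of all 32851 RefSeq windows of 250 bases 26.5% held at least 1 of these motifs. A match is a match of letters and no measured site.

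Il13 and Il5 levels are given for each IL-33 library as a description, since each condition and day has 1 library and the intervals do not cover the spread between pools of tumors or between cells. Il13 was at 2816 CPM in PD1d/IL-33 ACT (95% Poisson interval 2580 to 3068), and at 5247 (5096 to 5402), 1573 (1475 to 1674) and 961 CPM (860 to 1071) at days 5, 12 and 26 of triple ACT. Il5 was at 1150 CPM in PD1d/IL-33 ACT, and at 3173, 446 and 310 CPM at days 5, 12 and 26. Day 5 was the highest and day 26 the lowest library for both. The type 2 cytokines and effectors, a list of 26 genes that also holds other lymphocyte cytokines such as Ifng, Il17a, Il10, Il2 and Tnf, summed to 11473 CPM in PD1d/IL-33 ACT, 19648 CPM at day 5, 6928 CPM at day 12 and 6868 CPM at day 26. Il4 stayed in a narrower range, with 242 CPM in PD1d/IL-33 ACT and 329, 132 and 310 CPM at days 5, 12 and 26.

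Calca had another order. It was at 559 CPM in PD1d/IL-33 ACT, 306 and 366 CPM at days 5 and 12, and 2460 CPM (2296 to 2631) at day 26 of triple ACT, where its interval lies above those of the other 3. Areg was at 4573 CPM in PD1d/IL-33 ACT and 6983, 3329 and 1516 CPM at days 5, 12 and 26. Without IL-33 the cells were few. The 8 cells of PD1d/IL-2v ACT had Il13 at 717 CPM (31 of 36 UMIs in a single cell), Il5 at 79.7 CPM and Areg at 896 CPM. The 4 cells of untransduced ACT at day 5 had Il13 at 550 CPM (12 of 14 UMIs in a single cell) and Il5 at 747 CPM (19 of 19). With so few cells per library, no gene test of IL-33 against no IL-33 could be made.

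**Figure D3:**
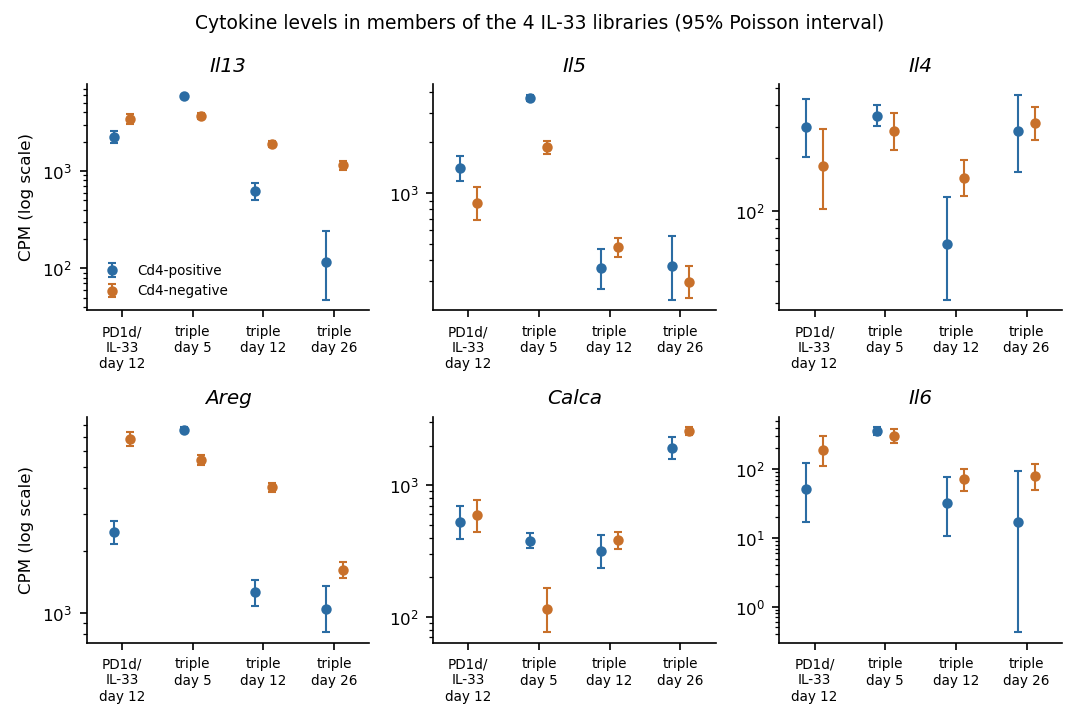
CPM (log scale, y axis) of Il13, Il5, Il4, Areg, Calca and Il6 in Cd4-positive (blue) and Cd4-negative (orange) cells of the 4 libraries with IL-33 (x axis, where triple stands for triple ACT), with 95% Poisson intervals that cover counting error. Il13 in Cd4-positive cells runs from 5867 CPM at day 5 to 117 CPM at day 26, and Calca is highest at day 26 in both sets.

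A few cells decided some of the values. Il9 was found in 5 Cd4-positive cells of triple ACT at day 5, with 662 of 1050 UMIs in a single cell. For Ifng, a type 1 cytokine, 293 of 375 UMIs were in a single cell. Il13 was spread more widely, with 467 of 6424 UMIs (7.27%) in its highest cell, and so were Il5 (5.31%), Areg (4.37%) and Calca (6.31%).

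Cd4-negative and Cd4-positive cells were compared within the 4 libraries with IL-33, in which 14, 30, 55 and 52 Cd4-negative and 18, 75, 29 and 13 Cd4-positive cells were present (PD1d/IL-33 ACT at day 12, then triple ACT at days 5, 12 and 26). Cd4-negative cells were higher in Hs3st1, a heparan sulfate enzyme, in Il1r2, a decoy receptor for IL-1, and in Lmo4, a transcriptional cofactor. They were lower in genes of the T cell receptor complex and in Tnfrsf4, which encodes the co-stimulatory receptor OX40. The heat shock gene Hspa1a (log2 -1.68), Dusp2 (-1.49) and Klf6 (-1.03) were called lower too. The Hspa1a call was lost without PD1d/IL-33 ACT or day 26 of triple ACT, and that of Klf6 without day 12 of triple ACT. edgeR called 52 of 3372 genes at an adjusted p of 0.05 (1.54%), 25 higher (0.741%) and 27 lower (0.801%) in Cd4-negative cells.

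Il1r2 was at 458, 160, 495 and 188 CPM in Cd4-negative cells of the 4 libraries in that order, and at 10.4, 41.8, 169 and 0 CPM in Cd4-positive cells. It was higher in every library, with a log2 fold change of 2.33 ± 0.37 (SE; edgeR, Benjamini-Hochberg adjusted p = 0.00734). Lmo4 was at 391, 312, 191 and 379 CPM against 93.2, 51.4, 90.9 and 16.7 CPM (log2 2.26 ± 0.31, edgeR adjusted p = 0.0038). For both genes the call remained when any of the 4 libraries was left out, which held for 8 of the 52 genes. Hs3st1 was at 368, 86.2, 148 and 382 CPM against 0, 41.8, 26.0 and 134 CPM (log2 2.08 ± 0.43, edgeR adjusted p = 0.0275), and its call was lost without day 12 or day 26 of triple ACT. The call of Il1r2 was lost in DESeq2, that of Lmo4 after thinning and that of Hs3st1 in both.

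**Figure D4:**
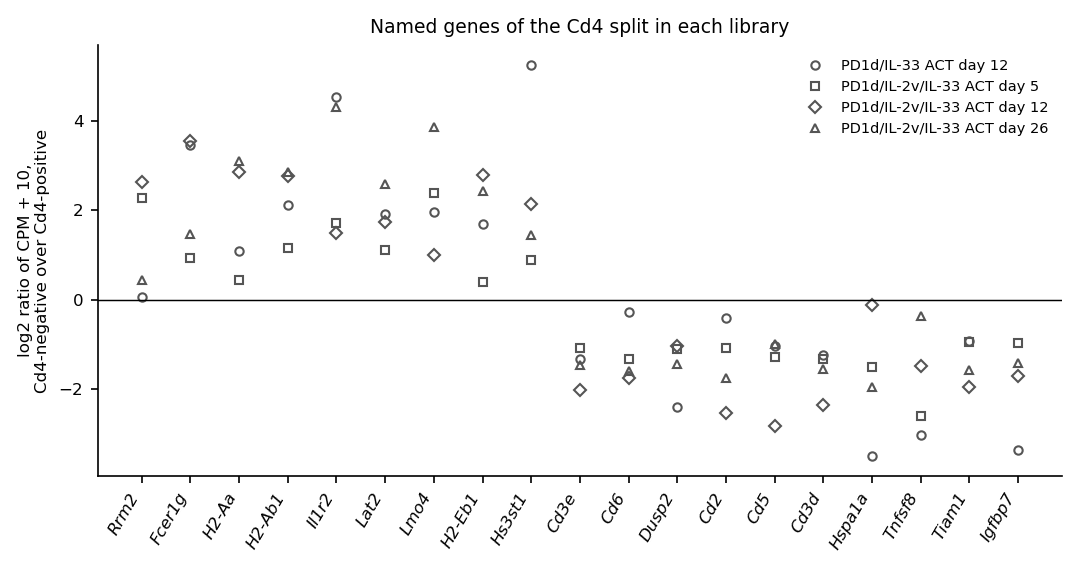
Log2 ratio of CPM + 10 in Cd4-negative over Cd4-positive cells (y axis) for 9 of the highest and the 10 lowest called genes (x axis), with 1 symbol for each of the 4 libraries with IL-33. All libraries lie above 0 for the 9 genes on the left and below 0 for the 10 on the right, and the spread between libraries is widest for Hs3st1 and Hspa1a.

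Of the 10 genes of the T cell list 9 were tested and 8 fell in Cd4-negative cells (median log2 of the 9 genes -1.39, that of all genes 0.00383). Cd3e was at 279, 209, 124 and 308 CPM against 715, 453, 533 and 870 CPM in Cd4-positive cells (log2 -1.45 ± 0.18, edgeR adjusted p = 0.00147). Cd3d (log2 -1.64), Cd5 (-1.57) and Cd28 (-1.30) also fell, as did Cd40lg (-1.30), the CD40 ligand of helper T cells. Every library showed these directions, and Cd3e remained above 0 in Cd4-negative cells of all 4. Cd3e and Cd3d were called when any library was left out, while Cd5, Cd28 and Cd40lg were lost without day 12 of triple ACT and after thinning. Of 14 tested genes of co-stimulation and inhibition 4 fell and none rose (median log2 -0.68), among them Tnfrsf4, at 67.0, 271, 92.1 and 301 CPM against 342, 651, 208 and 786 CPM (log2 -1.33 ± 0.19, edgeR adjusted p = 0.00467), a call that was lost after thinning.

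Of 10 tested genes of the ILC2 list 2 rose, among them Hs3st1 (median log2 0.20). Klrg1 had a log2 fold change of 0.76 and Il17rb, part of the IL-25 receptor, of 1.83, and neither passed the test (edgeR adjusted p = 0.177 and 0.0623). Il17rb was called without day 5 of triple ACT (log2 2.23, edgeR adjusted p = 0.0351) and with no filter on low counts (1.87, 0.00358). Rora, a transcription factor that ILC2s need, was at 514, 382, 394 and 280 CPM against 280, 371, 338 and 301 CPM and was not called (log2 0.29, edgeR adjusted p = 0.508). Of 15 receptors for alarmins and cytokines Il1r2 rose and Ifngr1, the receptor for interferon gamma, fell (log2 -1.04). Ifngr1 was not called without day 12 of triple ACT (edgeR adjusted p = 0.109) or after thinning (0.305), and Il1r2 was called in both. No gene was called among 12 homing genes, 17 transcription factors and 14 genes of the IL-2 receptor and STAT5 feedback. Of 13 tested type 2 cytokines and effectors 1 rose and none fell (median log2 0.07).

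The cytokines themselves were not called over all 4 libraries with the filter on low counts. Il13 was at 3439, 3664, 1886 and 1140 CPM in Cd4-negative and 2238, 5867, 623 and 117 CPM in Cd4-positive cells, so it was lower in Cd4-negative cells at day 5 of triple ACT and higher in the other 3 libraries. Its log2 fold change was 0.80 ± 0.35 (edgeR adjusted p = 0.308) and 1.47 without the day 5 library (edgeR adjusted p = 0.00178). Areg too was lower in Cd4-negative cells at day 5 and higher in the other 3 libraries, at 6866, 5425, 4012 and 1614 CPM against 2445, 7593, 1260 and 1054 CPM (log2 0.86 ± 0.27, edgeR adjusted p = 0.128, and 5.95e-05 without day 5). With no filter on low counts both were called over all 4 libraries (Il13 log2 0.90, edgeR adjusted p = 1.06e-05, and Areg 0.92, 3.97e-07). Il5 (log2 -0.42), Il4 (0.07) and Calca (-0.07) were not called either.

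Genes of MHC class II antigen presentation were also called. H2-Aa was at 11.2, 16.4, 156 and 503 CPM in Cd4-negative and 0, 9.64, 13.0 and 50.2 CPM in Cd4-positive cells (log2 2.73 ± 0.44, edgeR adjusted p = 0.00734), and H2-Ab1 and H2-Eb1 rose with it (log2 2.41 and 2.17). Without the single day 26 cell that held the most Cst3 UMIs, H2-Aa (log2 1.94, edgeR adjusted p = 0.0996) and H2-Eb1 (1.41, 0.294) were no longer called and H2-Ab1 was (2.03, 0.0423). Without day 12 of triple ACT none of the 3 was called: H2-Ab1 (edgeR adjusted p = 0.0864) and H2-Eb1 (0.237) missed the threshold and H2-Aa did not pass the filter on low counts. Without day 26 neither H2-Aa nor H2-Eb1 passed that filter. Fcer1g, a signaling chain of innate cells, was at 101, 24.6, 107 and 17.7 CPM against 0, 8.03, 0 and 0 CPM (log2 3.23 ± 0.69, edgeR adjusted p = 0.0323), and it missed the threshold without day 26 and the filter on low counts without PD1d/IL-33 ACT or day 12. Of 11 cell cycle genes Rrm2 (log2 3.41) and Top2a (1.51) rose. Neither was called without day 5, day 12 or day 26, where it missed the threshold or the filter on low counts, and the median of the 11 genes was 0.80.

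The 39 Cd4-negative cells without any Cd3 UMI stood further from Cd4-positive cells, as the rule for choosing them makes certain for Cd3. All 4 libraries with IL-33 had at least 5 such cells, and 87 of 1656 genes were called, 31 higher and 56 lower. Hs3st1 (log2 2.94), Il1r2 (2.93) and Lmo4 (2.81) rose, and Klrg1 (1.18) and Id2 (1.11), an inhibitor protein that innate lymphoid cells need, were called here. Il5 fell (mean over libraries 491 against 1454 CPM, log2 -1.23, edgeR adjusted p = 0.0436) and Areg rose (5684 against 3088 CPM, log2 1.08, edgeR adjusted p = 0.0399), neither in the same direction in all 4 libraries. For Il5 a single cell held 45.8% of the UMIs of these cells. In single cells Hs3st1 was found in 59.0% of the 39 cells, 18.6% of the 118 Cd4-negative cells with Cd3 and 7.04% of the Cd4-positive cells. At 2000 UMIs per cell these shares were 30.8%, 13.6% and 3.52%. Il17rb was found in 53.8%, 23.7% and 7.75% of these 3 sets, but in 12.8%, 13.6% and 1.41% at 2000 UMIs, so the order of the cells with and without Cd3 did not hold at equal depth. Kit, the receptor for stem cell factor, was found in 46.2%, 13.6% and 2.82%, and in 12.8%, 5.08% and 2.11% at 2000 UMIs.

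Against Il1rl1-negative Cd4 cells of the same 4 libraries (44, 65, 59 and 285 cells, chosen with the same negative terms), the Cd4-positive Il1rl1+ cells were higher in type 2 cytokines, in the leukotriene receptor Ltb4r1 and in IL-2 and IL-7 receptor chains. They were lower in Cxcr3, a chemokine receptor of type 1 cells, in Il18r1 and Il12rb2, receptor chains for cytokines that drive type 1 cells, and in Nkg7. edgeR called 238 of 4356 genes (5.46%), 147 higher (3.37%) and 91 lower (2.09%), and 75 of the 238 were called when any library was left out. The others either missed the threshold or no longer passed the filter on low counts without at least 1 library. Il1rl1 and Gata3 were not tested. The comparison set was shallower (median 3936 against 6143 UMIs).

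Of 19 tested type 2 cytokines and effectors 10 rose and none fell (median log2 1.78, that of all genes -0.03). Il5 was at 1409, 3684, 357 and 368 CPM against 0, 67.1, 190 and 1.67 CPM (log2 4.73 ± 0.67, edgeR adjusted p = 9.99e-05). Il4 was at 300, 347, 64.9 and 284 CPM against 10.6, 33.6, 9.49 and 1.67 CPM (log2 4.50 ± 0.43, edgeR adjusted p = 7.54e-07). In no library did the 2 sets come close for these genes, except for Il5 at day 12. Il13 was at 0, 159, 604 and 13.4 CPM in the Il1rl1-negative cells (log2 3.79 ± 0.75, edgeR adjusted p = 0.00262). The 604 CPM at day 12 were close to the 623 CPM of the Il1rl1+ cells. They came from 6 of 59 cells, with 116 UMIs in the highest cell, while 15 of 29 Il1rl1+ cells had Il13. Without day 12 the log2 fold change was 5.40 for Il13 and 6.60 for Il5. The Il13 call was lost without day 5 (edgeR adjusted p = 0.132) and in DESeq2 (adjusted p = 0.0983). Calca (log2 4.69) and Areg (3.64) rose and stayed called without any 1 library, while Il6 (5.63) was lost without day 5. Il17a (67 against 0 UMIs) was called on few cells and passed the filter on low counts through the Il1rl1+ set. Csf2 (log2 0.21) and Ifng (-0.51) were not called.

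Receptors for lipid mediators and neuropeptides gave 4 higher and no lower calls among 8 tested (median log2 1.66). Ltb4r1, the high-affinity receptor for leukotriene B4, was at 176, 299, 234 and 318 CPM against 21.1, 18.3, 25.3 and 8.37 CPM (log2 4.10 ± 0.32, edgeR adjusted p = 2.31e-07), with no overlap between the sets. Ramp3, a partner chain of the calcitonin receptor family, rose by 2.10, Cysltr1 by 3.03 and Ptgir, the prostacyclin receptor, by 2.77 on the log2 scale. Of 14 receptors for alarmins and cytokines Il7r (log2 1.67), Il2ra (2.56) and Il10ra (1.80) rose, and Il18r1 (-1.53) and Il12rb2 (-3.21) fell. Of 11 genes of the IL-2 receptor and STAT5 feedback Cish (1.11) and Socs2 (1.89) rose. Of these genes Ptgir missed the threshold without day 5 of triple ACT or without PD1d/IL-33 ACT. Cysltr1 and Il12rb2 without day 5, and Ptgir and Cysltr1 without day 26, no longer passed the filter on low counts and were not tested. The others were called when any library was left out.

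Among 18 transcription factors Pparg, which type 2 lymphocytes use, was at 114, 46.6, 84.4 and 50.2 CPM against 5.28, 12.2, 9.49 and 0 CPM (log2 3.50 ± 0.67, edgeR adjusted p = 0.00195). Nfil3 (1.39) and Nfkb1 (1.03) also rose, and Tbx21, the type 1 factor T-bet, fell by 1.77. Rora (log2 -0.08) was not called. Of 16 genes of co-stimulation and inhibition 5 rose, among them Tnfrsf9 (1.67), Cd40lg (1.18), Pdcd1 (1.06) and Klrg1 (1.59), and Lag3 fell (-1.70). Of 17 homing genes Rgs2 rose and 2 fell, among them Cxcr3 (-2.49). Of 11 cell cycle genes none was called, and 4 of 14 immediate early and heat shock genes rose, led by Atf3 (3.71). Of the genes named here Pparg, Cd40lg, Rgs2, Cxcr3 and Atf3 were called when any library was left out. Nfil3, Nfkb1, Tbx21, Tnfrsf9 and Klrg1 were lost without day 5, where Lag3 did not pass the filter on low counts, and Tbx21, Tnfrsf9, Klrg1 and Pdcd1 without day 26. Nfkb1, Pdcd1 and Lag3 were lost without PD1d/IL-33 ACT. The Klrg1 call was also lost in DESeq2 (adjusted p = 0.0751), after thinning (edgeR adjusted p = 0.178) and with at least 5 cells per set (edgeR adjusted p = 0.224).

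Of the 10 T cell genes Cd40lg rose and Trat1 (-1.76), Lat (-0.84) and Cd247 (-0.76) fell, the last lost without any of the 4 libraries. Of 9 tested genes of the ILC2 list 4 rose and none fell (median log2 1.59).

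Among the lowest genes, Gzmk had 0 UMIs against 378. It thus passed the filter on low counts through the Il1rl1-negative set, and the size of its fall is not known. Ly6c2 was at 10.4, 17.7, 64.9 and 0 CPM against 459, 476, 367 and 142 CPM (log2 -3.89 ± 0.38, edgeR adjusted p = 7.72e-07). The 3 tested genes of the NK list (Klrd1, Nkg7 and Gzma) all fell. The Il1rl1-negative set held some cells of another kind: Siglech, a gene of plasmacytoid dendritic cells, had 128 UMIs in 6 of its cells and 0 in the Il1rl1+ cells. With a Cd3 UMI required of the Il1rl1-negative cells 242 genes were called, 217 of them shared. In that fit Cybb, Klrk1, Tcf4, Lair1 and Ctsl, 5 of the 10 lowest genes, had too few UMIs to be tested.

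Cells that met the same rule but had Foxp3 made another comparison. With 44 such Cd4 cells in all, at least 5 cells of each set per library were required in place of 10, which kept PD1d/IL-2v ACT at day 12 (5 against 6 cells) and triple ACT at days 5, 12 and 26 (75 against 8, 29 against 6 and 13 against 13 cells). The cells without Foxp3 were higher in Il13, Il4, Il5 and Calca, in Cd40lg and in Cxcr6, a chemokine receptor of resident cells. They were lower in genes of regulatory T cells and in cell cycle genes. edgeR called 178 of 1652 genes (10.8%), 110 higher (6.66%) and 68 lower (4.12%).

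Il13 had 3760 UMIs against 1, Il5 2370 against 1, Calca 412 against 1 and Il4 249 against 0, and these 4 calls held without any 1 library. In PD1d/IL-2v ACT 0 of the 5 Cd4-positive cells had Il5 and 2 had Il13, with at most 3 UMIs, so the Il5 UMIs all came from triple ACT. DESeq2 called Il13, Calca and Il4 too, and Il5 had an adjusted p of 0.167 there. Of 9 tested type 2 cytokines and effectors 6 rose. Il13, Il5, Calca and Il4 had 0 or 1 UMI in the cells with Foxp3. They thus passed the filter on low counts through the other set, and the size of their rise is not known. Areg did not pass the test: it was at 1102, 7593, 1260 and 1054 CPM against 1354, 2102, 673 and 808 CPM (log2 0.91 ± 0.28, edgeR adjusted p = 0.0546). It was above its partner in 3 of 4 libraries. Areg was called in cells with no Lyz2 UMI (log2 1.32, edgeR adjusted p = 0.000171), after thinning (0.75, 0.0371) and without PD1d/IL-2v ACT (1.26, 0.00023), and not in the other settings, where the edgeR or DESeq2 adjusted p was 0.0529 to 0.353. Hdc, the enzyme that makes histamine, had 426 UMIs against 0. It too passed the filter on low counts through the cells without Foxp3, and the size of its rise is not known.

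Of 5 tested genes of the Treg list Ikzf2, Ctla4 and Izumo1r fell and Nrp1 rose. Of 9 T cell genes Cd40lg and Cd3g rose and none fell. Ikzf2, which encodes Helios, was at 30.6, 30.5, 175 and 201 CPM against 620, 909, 1182 and 1120 CPM (log2 -3.33 ± 0.38, edgeR adjusted p = 8.13e-05), and Ctla4 was at 184, 501, 396 and 234 CPM against 2997, 1406, 1162 and 1368 CPM (log2 -2.03 ± 0.32, edgeR adjusted p = 0.00123). The sets did not overlap in either gene. Of 14 genes of co-stimulation and inhibition 7 fell, among them Tnfrsf4 (-1.13), Tnfrsf9 (-1.32) and Klrg1 (-1.71), and Cd40lg (4.38), Cd69 (1.65) and Pdcd1 (1.26) rose. Of 10 cell cycle genes 6 fell (median log2 -1.89), among them Mcm5 (-3.43) and Top2a (-1.89).

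Cxcr6 was at 857, 482, 526 and 703 CPM against 62.0, 28.4, 184 and 119 CPM (log2 2.92 ± 0.37, edgeR adjusted p = 0.000178). Ramp3 rose by 5.14 and Ltb4r1 by 2.39 on the log2 scale, and Gpr183, an oxysterol receptor, by 2.06. Bhlhe40, a factor of cytokine-making T cells, rose by 1.99 and Maf fell by 1.21. Il2ra fell by 1.52, while Il7r (1.21), Il10ra (2.08) and Tnfrsf25 (3.33), the receptor for TL1A, rose. Without day 12 of triple ACT 38 genes were called, and 27 of the 178 held when any library was left out. Of the genes named in this comparison those are Il13, Il5, Il4, Calca, Hdc, Ikzf2, Ctla4, Izumo1r, Cd40lg, Cxcr6, Ramp3 and Bhlhe40. The others missed the threshold or the filter on low counts without at least 1 library. Gpr183 missed the threshold without each of the 4, Nrp1 without 3 and Tnfrsf25 without day 26, and Nrp1 and Tnfrsf25 did not pass the filter without the remaining libraries.

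Between libraries no test was possible, and genes are named by a log2 ratio of at least 1 after adding 10 CPM, among genes with at least 50 UMIs in both libraries together. The libraries of each pair came from different runs, so run cannot be told apart from day or treatment in these ratios. At day 12, triple ACT had 39 of 1900 genes higher (2.05%) and 64 lower (3.37%) than PD1d/IL-33 ACT. Il1rl1+ type 2 cells of the mixed transfer were higher in H2-Aa (121 against 5.37 CPM), Cd74 (416 against 53.7 CPM), H2-Ab1 and H2-Eb1. Each of these passed the 50 UMIs through triple ACT alone. H2-Aa had 75 UMIs against 1, Cd74 258 against 10, H2-Ab1 91 against 3 and H2-Eb1 71 against 2. Of the UMIs in triple ACT, 73 of H2-Aa and 249 of Cd74 were in Cd4-negative cells. They were lower in Ccr2 (25.8 against 247 CPM), a receptor for monocyte chemokines, in Ier3 (19.3 against 253 CPM) and in the interferon-induced Ifi27l2a (285 against 1317 CPM) and Cxcl10 (33.8 against 193 CPM). Of 14 immediate early and heat shock genes 5 were lower and none higher. Of 9 type 2 cytokines and effectors compared 1 was lower and none higher. Of 8 genes of the T cell list 6 were lower (median log2 -1.12), beside a Cd4-negative share of 65.5% against 43.8% at full depth and of 78.6% against 65.6% at 2000 UMIs, where the intervals overlap. Read by set, 4 of 6 were lower in Cd4-negative cells (median -1.11) and 1 of 7 in Cd4-positive cells (median -0.42). The share over all genes was read for the sets together only, so these counts by set are a description.

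Within triple ACT, day 12 had 50 of 3403 genes higher (1.47%) and 142 lower (4.17%) than day 5. Of 15 genes of the list of type 2 cytokines and effectors 11 were lower and 1 higher (median log2 -1.73). Read by set, 9 of 11 were lower and 1 higher in Cd4-positive cells (median -3.11), and 4 of 11 lower and 2 higher in Cd4-negative cells (median -0.85). A gene could pass the 50 UMIs through 1 library alone, as Il9 did in Cd4-positive cells (0 UMIs at day 12, 1050 at day 5). No share over all genes stands beside these counts by set, so they are a description. Beside Il13 and Il5 the lower genes include those of other kinds, such as Il10 (3.22 against 148 CPM) and Ifng (16.1 against 390 CPM). Gzmb, granzyme B, was at 24.2 against 547 CPM. Il2ra, the CD25 chain, was at 255 against 937 CPM and was among 4 of 14 genes of the IL-2 receptor and STAT5 feedback that were lower. Il1r2 (414 against 75.0 CPM), Tff1 (148 against 11.5 CPM), a trefoil peptide, and Klf4 (99.9 against 15.0 CPM) were higher at day 12. These ratios pool sets whose Cd4-negative part was 65.5% at day 12 against 28.6% at day 5 (full depth). In Cd4-positive cells Il1r2 was at 169 against 41.8 CPM, and 86 of the 92 Tff1 UMIs at day 12 were in Cd4-negative cells.

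Day 26 had 101 of 2299 genes higher (4.39%) and 87 lower (3.78%) than day 12. Calca (2460 against 366 CPM) and Ramp3 (850 against 184 CPM) were both higher, and they were so in each of the sets: Calca was at 1924 against 318 CPM in Cd4-positive and 2573 against 381 CPM in Cd4-negative cells, and Ramp3 at 1322 against 351 CPM and 750 against 129 CPM. Zfp36, which shortens the life of cytokine mRNAs, was at 707 against 142 CPM. Il7r was at 759 against 253 CPM. Cst3, a gene of the myeloid list, was at 1516 against 253 CPM, with 416 of its 519 UMIs at day 26 in a single cell. Of 14 immediate early and heat shock genes 4 were higher and 1, Fosb, lower at day 26. At day 12 against day 5, 4 were higher and 1, Egr1, lower. The part of these genes in the other ratios was not tested. Lower at day 26 were Tff1 (8.76 against 148 CPM), Mt1 (11.7 against 103 CPM) and Gzma (0 against 67 UMIs). Of 6 cell cycle genes 4 were lower, and of 14 genes of co-stimulation and inhibition 5 were higher.

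The edges of the rule are given as a description. Of all 652 passing cells with an Il1rl1 UMI 299 were members (45.9%). Each other cell is counted once, by 1 term that left it out. These terms were Foxp3 for 167 (25.6%), Cd8a or Cd8b1 for 111 (17.0%) and no Gata3 for 63 cells (9.66%), beside a few for others. A cell counted for Foxp3 or Cd8 may thus also lack Gata3. Members with a single Il1rl1 UMI had Il13 in 40.7% of 59 cells and those with more in 74.2% of 240, against 4.05% of 617 cells that had Gata3 and no Il1rl1. Just outside the Gata3 term Il13 was found in 23.8% of 63 cells, and members with a single Gata3 UMI had it in 40.4% of 52. Of 18 cells left out for 1 UMI of Cd8a or Cd8b1, 66.7% had Il13, beside 67.6% of the members. Of 9 left out for 1 Foxp3 UMI none had it.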

How the data were processed

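Single cells were profiled with the 10x Genomics 5′ assay in 8 libraries of CD45+ cells from B16-OVA tumors. The authors deposited whole-number UMI counts per gene and barcode (27998 genes, 15700 barcodes, 98669511 UMIs). The labels name Cell Ranger 2.2.0, bcl2fastq and GRCm38, while the methods of the study name another Cell Ranger release. The number of barcodes per library is a round number in every deposited table (400 to 3700). The stated number of cells in the study covers CD8+ cells only, another population than that described here.

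Following the study, passing cells had 2000 to 40000 UMIs and 500 to 6000 genes, took 5 to 60% of their UMIs from ribosomal genes (113) and took less than 10% from mitochondrial genes (13). No doublet caller was used and no doublets were removed. The members and the gene lists were chosen with earlier results of these data known. Shares were compared between 4 libraries with and 4 without IL-33 by an exact permutation test. Counts were summed per library and cell set and tested with the quasi-likelihood test of edgeR 4.0.16 (R 4.3.3) with library as a block, TMM scaling, filterByExpr on low counts and Benjamini-Hochberg adjustment over all genes tested, without the genes of the rule. The cells summed came from 1 library per condition and from pooled mice, so p-values measure the spread between libraries that differ in day and treatment. Intervals are exact binomial or Poisson and cover counting error only. Named genes are the 10 highest and 10 lowest called genes that moved the same way in every library, and the called genes of the lists, and some genes are not reported here. Alternatives were DESeq2 1.42.0, other scaling, no filter, thinning to 2000 UMIs, stricter cell filters and leaving out each library. Sums used Python 3.11.15 with numpy 2.4.6, scipy 1.17.1 and pandas 2.3.3. The gene test was checked on simulated counts. Promoter windows are from RefSeq (GRCm38.p6).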

Additional observations from a re-analysis of the deposited data

Results flagged for a closer look

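In 4 of 22 groups of 4 libraries the highest library stood apart by Dixon's criterion (its gap to the next library over the whole range). Chance gives about 1 in 20 only for normally distributed values, which these CPM need not be, so that rate is no test of the 4. All 4 are genes of secreted mediators in Il1rl1+ type 2 cells in the libraries with IL-33. Calca was at 2460 CPM at day 26 of triple ACT and at 306 to 559 CPM in the other 3 libraries, and its highest cell held 6.31% of all its UMIs. Il9 was at 1212 CPM at day 5 and at 0 in the other 3, from 5 Cd4-positive cells. Ifng was at 390 CPM at day 5 against 8.76 to 26.9 CPM, with 293 of 375 UMIs in a single cell. Csf2 was at 151 CPM at day 5 against 24.2 to 35.1 CPM, with 61 of 202 UMIs in a single cell. Each library is 1 pool of mice, and no cause was tested.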

How the results depend on the processing

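No called gene named here and no difference in share changed direction. Of genes not called between Cd4-negative and Cd4-positive cells, Calca (log2 -0.07) was at 0.38 without triple ACT day 5 and 0.22 after thinning, and Il4 (0.07) at -0.23 without day 12 and -0.56 in cells without Cd3. Within runs, the share with IL-33 was higher by 4.62 (triple against untransduced ACT, day 12), 1.78 (triple ACT at day 26 against non-treated) and 3.77 points (PD1d/IL-33 against PD1d/IL-2v ACT) for all cells, by 1.77, 0.356 and 2.09 points for Cd4-positive and by 2.85, 1.42 and 1.67 points for Cd4-negative cells. Without each library in turn these differences were 3.17 to 4.29, 1.40 to 2.33 and 1.31 to 2.01 points, where 0.0571 is the smallest exact permutation p possible. Thinning to 2000 UMIs gave 0.503 points for Cd4-positive cells. Other cell filters kept all 3 past the threshold.

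For Cd4-negative against Cd4-positive cells (52 genes called), leaving out a library gave 16 to 64 genes, 16 without triple ACT day 12 and 32 without day 26. DESeq2 called 24, no filter on low counts 116 and thinned cells 9. Added after seeing the data, Cd4-negative cells without Cd3 gave 87, cells of at least 5000 UMIs 34 and leaving out the cell with the most Cst3 UMIs 49. The Cd4-negative part at 2000 UMIs was also added then. Against Il1rl1-negative Cd4 cells (238 called) the range was 110 to 229, 110 without triple ACT day 5, with 137 in DESeq2, 97 after thinning and 327 with no filter. Against cells with Foxp3 (178 called) it was 38 to 193, with 38, 59 and 94 genes without triple ACT days 12, 26 and 5, 106 in DESeq2 and 71 after thinning. Thinning removes UMIs, and the cause of the other shifts was not tested. Not run at 10 cells per set, for want of cells, were the fits without Cd3, at 5000 UMIs and against cells with Foxp3. No paired analysis was possible because no condition and day has a second library with a shared number. Pairs within runs are given above, and library is a block in every gene test. The small number of passing cells in untransduced ACT day 12 (202) and non-treated tumors (276) limits their shares.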
